A study of Mus musculus with 8 samples.

Results

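The comparison described here sets bone marrow myeloid cells of mice that lack Hdc against the same cells of mice with wild-type Hdc. Hdc encodes histidine decarboxylase, the enzyme that turns histidine into histamine. Its members were 7157 of the 18194 genes that the array reads with a probe set of their own. A gene was a member if its probe set, the one with the highest mean where a gene had several, lay at or above log2 5 on at least 2 of the 4 bone marrow arrays. Values were log2 expression values, and log2 5 was taken as background level. The threshold lay between Fbxo7, whose second-highest marrow value was 5.00, and Plcb1, at 4.9951.

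Both groups were C57BL/6J mice aged 3 to 4 months that carried the HDC-EGFP transgene, a reporter that makes green fluorescent protein under Hdc control. One genotype is given as HDC-EGFP, called wild-type here, and the other as HDC-EGFP/HDC-KO, called HDC-null here, with 3 mice in each. Marrow of femur and tibia was freed of red cells and sorted for CD11b and Gr-1, surface proteins of granulocytes and monocytes, and the cells are described as HDC-expressing. Whether the RNA of the 3 mice was pooled is stated for the tumor samples and not for marrow, so each genotype is treated as 1 pool, measured on 2 technical arrays. A p-value below therefore weighs the gap between 2 pools against variation among repeat arrays, and the variation among mice was not measured. In such bulk samples, fewer cells of a type and less RNA per cell cannot be told apart.

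Histamine is stored in mast cells and basophils and is also made by myeloid cells, and it acts through receptors coupled to G proteins. CD11b+Gr-1+ cells of the marrow are mostly immature and maturing granulocytes with some monocytes. Granulocytes make their granule proteins in order, primary granules first and secondary and tertiary granules later, and respond to microbes and cytokines with NF-kappa-B targets, immediate early genes and interferon-induced antiviral genes.

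The sort was checked against markers of other cells. All 11 granulocyte markers with a probe set of their own lay at or above log2 5 in both pools, from 9.70 to 15.15, and their summed level was 17.53 on the log2 scale in each pool. A summed level adds unlogged values, so it follows the highest genes. All 5 epithelial markers lay under log2 5 in both pools, as did 3 of 4 of red cell precursors, with Slc4a1 at 5.48 in the wild-type pool. Single markers of other cells lay well above background in at least 1 pool. Wild-type and HDC-null means were 9.95 and 7.87 for Mcpt8 of basophils, 11.04 and 5.38 for Igha of plasma cells, 8.49 and 6.77 for Adgre1 of macrophages and 7.63 and 12.48 for Cd3d of T cells. Other markers of the last 3 kinds lay under log2 5 in both pools: Mzb1, Sdc1 and Tnfrsf17, then Mertk, C1qa and Cd5l, then Cd3e, Cd3g and Ncr1. The macrophage marker C1qb went up, from 6.42 to 7.55. Whether the single markers reflect such cells was not tested. The 2 arrays of a pool correlated at 0.9978 in either genotype and arrays of different pools at 0.9711 to 0.9713, over the 7157 members, which are no replicates of one another. The median SD between technical arrays was 0.045 for wild-type and 0.047 for HDC-null marrow.

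Most of the transcriptome of these cells was alike. The median log2 difference, HDC-null minus wild-type, was 0.00 over the 7157 members, the median size of a difference was 0.14, and 89.0% of members differed by less than 0.5. A gene was called when it differed by at least 1 on the log2 scale, which is 2-fold, and passed limma with Benjamini-Hochberg adjustment at 0.05. By this rule 281 members were called, 3.93% of them, with 130 higher (1.82%) and 151 lower (2.11%) in the HDC-null pool. Every count of called list members below is to be read beside these shares, also where they are not repeated. Whatever the size, 1587 members passed limma's adjusted threshold, which is 22.2%. At least that share also had an unadjusted p under 0.05 in limma, and it stands beside each count at that level below. Among the 6898 members with both pools at or above log2 5, 180 were called (2.61%), 72 higher and 108 lower. For the other 101 calls 1 pool lay under background. A gene of that kind is a member only through the pool where it is high, so its difference is given as a bound, with the lower mean raised to log2 5, and 46 such calls fell under 2-fold when this was done.

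**Figure D1:**
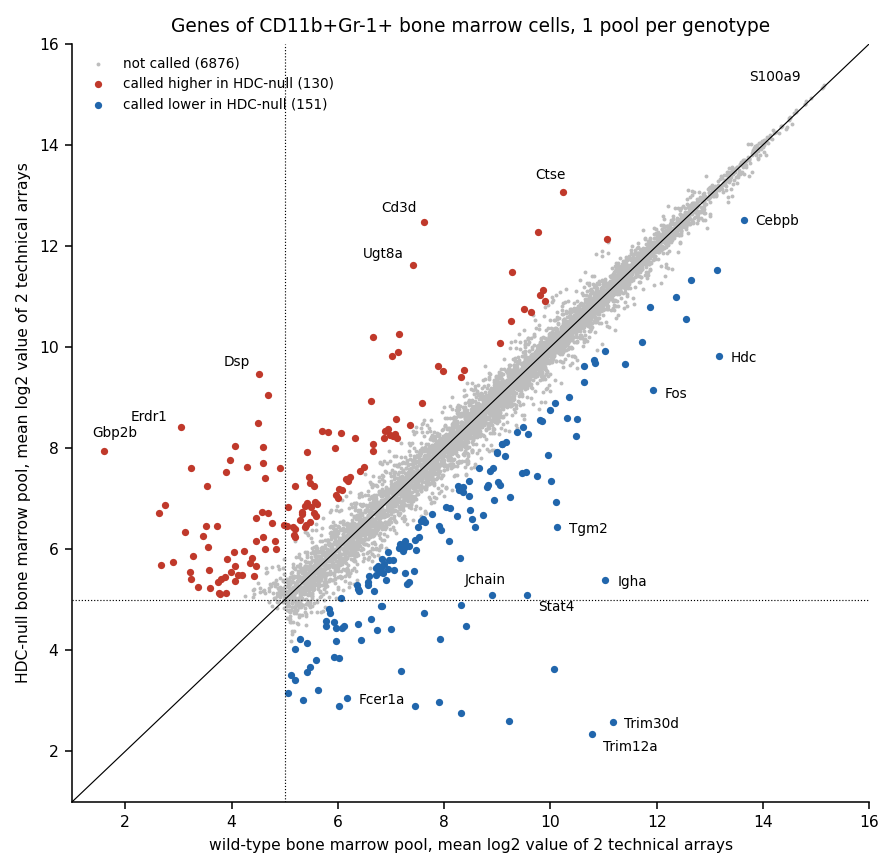
Each point is 1 of 7157 genes, placed by its mean log2 value in the wild-type pool (horizontal axis) and the HDC-null pool (vertical axis), each the mean of 2 technical arrays. The 130 genes called higher are red, the 151 called lower are blue, grey points were not called, the solid line marks equal levels and dotted lines mark log2 5. Most genes hug the line, while Trim30d, Trim12a and Igha lie far below it and Cd3d, Ugt8a and Dsp far above.

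Hdc itself fell. It read 13.14 and 13.21 on the wild-type arrays and 9.79 and 9.87 on the HDC-null arrays, and the HDC-null pool still lay well above background. The groups did not overlap, as at 5063 of the 7157 members. Hdc was 10.2-fold lower, a log2 difference of -3.35 ± 0.05 (SE, n = 2 arrays for each pool; limma, adjusted p = 1.5e-06). A second Hdc probe set went from 12.07 to 7.47, a difference of -4.60. The sources used here do not give where these probe sets lie relative to the deleted part of the gene, so the fall checks the label only as far as these probe sets reach.

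The other genes that handle histamine were not called. Of 11 listed genes that make, move, break down or receive histamine, 4 were members, 6 lay under the filter and 1 had no probe set of its own. Hnmt, which inactivates histamine by methylation, was at 10.39 in wild-type and 10.55 in HDC-null marrow. Slc18a2, which loads histamine into vesicles, was at 5.08 and 4.87, and the H2 receptor gene Hrh2 at 5.42 and 4.91, both near background. The receptor genes Hrh1, Hrh3 and Hrh4 were among those under the filter.

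Genes beside Hdc on its chromosome were examined by their order in the RefSeq gene table. Of the 10 nearest members, 5 on each side, limma called none, and 3 reached an unadjusted p under 0.05. Over all members at least 22.2% reached that level. With means raised to log2 5 the differences of these 10 ran from -0.15 for Trpm7 to 0.13 for Atp8b4. The direct neighbours, Slc27a2 (a fatty acid transporter) and Gabpb1 (a subunit of the GABP transcription factor), differed by 0.06 and -0.03. Among the 20 nearest limma also called 0, with 6 at that unadjusted level. Within 25 places on each side 4 of 50 were called, each lower: Cdan1, Pdia3, Gatm and Il1b. Over all members 3.93% were called.

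**Figure D2:**
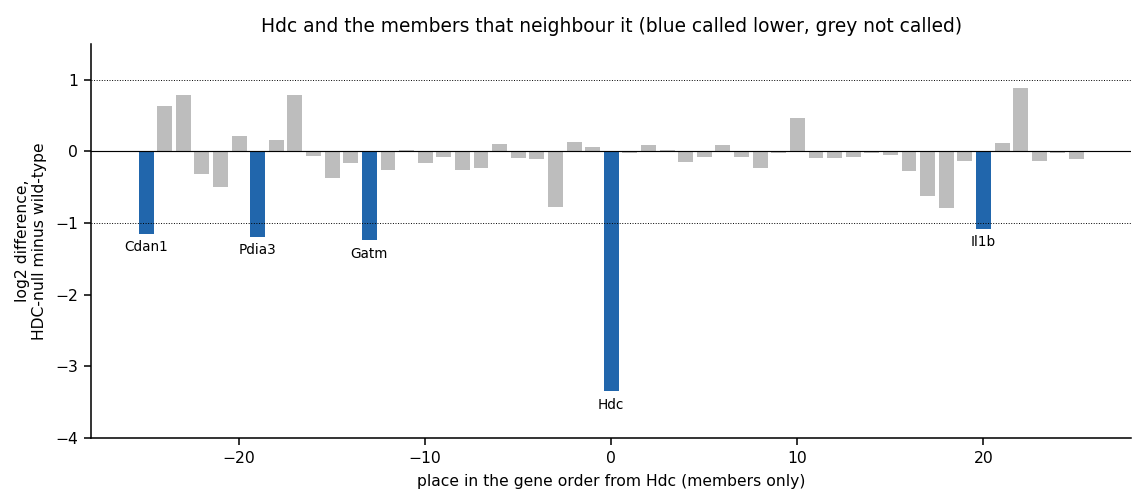
Bars give the log2 difference, HDC-null minus wild-type pool, of Hdc (place 0) and the 25 members on each side of it in the gene order (horizontal axis). Blue bars were called lower and grey bars were not called, and dotted lines mark a difference of 1 in either direction. Values under log2 5 are not raised here. None of the 20 members nearest to Hdc was called, and the 4 other blue bars are Cdan1, Pdia3, Gatm and Il1b.

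Among genes with both pools at or above log2 5, the largest falls were those of Igha, Stat4, Jchain, Tgm2 and Hdc itself. Igha, the heavy chain of immunoglobulin A, read 10.98 and 11.09 on the wild-type arrays against 5.68 and 5.08 on the HDC-null arrays, 50.3-fold lower, with a log2 difference of -5.65 ± 0.18 (limma, adjusted p = 1.3e-05). Its probe sets detected in marrow are all of kinds that can match several transcripts. Stat4, the transcription factor of interleukin 12 signalling, went from 9.59 and 9.51 to 5.11 and 5.06, 22.1-fold lower. Jchain, which joins antibody units, went from 8.83 and 8.97 to 5.02 and 5.15, 14.1-fold lower. In each of these genes the HDC-null pool lay just above background.

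Tgm2, a transglutaminase, fell 12.9-fold, from 10.09 and 10.17 to 6.49 and 6.38. Acod1, which makes the immune metabolite itaconate, fell 8.94-fold, from 10.26 and 9.93 to 6.90 and 6.97. Fos, a subunit of the AP-1 transcription factor, fell 6.90-fold, from 11.90 and 11.97 to 9.23 and 9.07. These 3 genes stayed well above background in both pools. Next in size were Ada, adenosine deaminase, at 6.39-fold lower, the antiviral genes Ifit1 at 5.55-fold and Oasl2 at 4.94-fold, Ramp1, a partner of the calcitonin-like receptor, at 4.72-fold, and Coq10b, a coenzyme Q binding protein, at 4.64-fold.

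Among the same genes the largest rise was that of Cd3d, a chain of the T cell receptor complex. It read 7.87 and 7.39 on the wild-type arrays and 12.49 and 12.46 on the HDC-null arrays, 28.8-fold higher, with a log2 difference of 4.85 ± 0.14 (limma, adjusted p = 1e-05). Cd3e and Cd3g, its partner chains, lay under log2 5 in both pools, between 2.36 and 2.91. Ugt8a, an enzyme of galactosylceramide synthesis, went from 7.15 and 7.67 to 11.59 and 11.65, 18.4-fold higher. Ap1s3, an adaptor subunit of vesicle coats, rose 11.5-fold, from 7.04 and 6.29 to 10.17 and 10.22. Pik3ap1, an adaptor that links Toll-like receptors to phosphoinositide 3-kinase, rose 8.58-fold, from 7.11 and 7.19 to 10.27 and 10.24.

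Ctse, the protease cathepsin E, rose 7.10-fold on its main probe set, from 10.30 and 10.17 to 13.03 and 13.10, but a second, dimmer probe set went from 6.47 to 5.68. The remaining large rises with both pools above background were Lhx1 at 6.95-fold, Tmem87a at 6.83-fold, Fcrl1 at 6.22-fold, Zfp692 at 5.70-fold, L1cam at 5.67-fold, Ssh1 at 5.62-fold and Coro2a at 4.96-fold. Lhx1 is a developmental transcription factor, L1cam a cell adhesion molecule, Ssh1 a phosphatase of the actin regulator cofilin and Fcrl1 a B cell receptor-like protein. Ssh1 was not called as the mean of its probe sets, at a log2 difference of 0.92.

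Some genes crossed the background level. Among called genes other than microRNA, predicted and clone-named ones, the widest bounds of lower genes were those of Trim30d, 72.0-fold or more, and Trim12a, 54.8-fold or more. Next came Ldhc, a lactate dehydrogenase best known from testis, at least 10.7-fold, Plekhg1 at least 9.98-fold, Dtd1 at least 9.92-fold and Dmwd at least 7.63-fold lower. In the other direction Dsp, the desmosome protein desmoplakin, was at least 22.3-fold higher, from 4.35 and 4.68 to 9.48 and 9.47. Fam71b was at least 16.5-fold higher, Bend4 at least 11.3-fold, Erdr1 at least 10.7-fold, Pi4k2b at least 8.22-fold and Snhg4 at least 8.10-fold. For Pi4k2b a second probe set differed by 0.30 and did not show the rise.

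**Figure D3:**
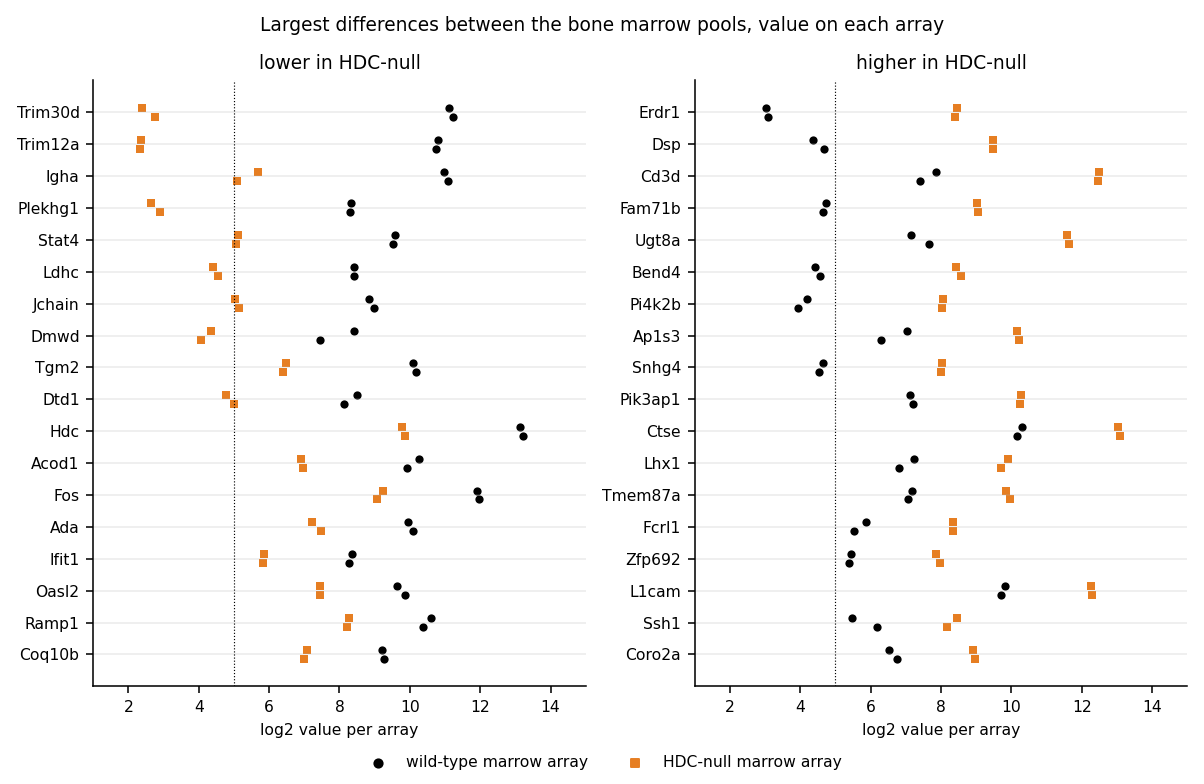
Each row is 1 gene and each symbol 1 array, with black circles for wild-type and orange squares for HDC-null marrow (2 technical arrays each) on a horizontal axis of log2 values, and the dotted line at log2 5. Each panel holds 18 called genes, the 12 with the largest differences where both pools reach log2 5 and the 6 with the largest bounds otherwise, without microRNA, predicted and clone-named genes. In each row the black and the orange symbols do not overlap, as at all 281 called genes and at 5063 of all 7157 members.

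Genes of granulocyte identity and of late granules were not called. None of 13 members among the genes of the gate and of granulocyte identity was called (median 0.02), nor any of 20 genes of secondary and tertiary granules (median -0.01), with 7 and 4 at an unadjusted p under 0.05 in limma. S100a8 and S100a9, the calprotectin subunits that are among the most abundant proteins of granulocytes, lay between 15.11 and 15.16 on all 4 arrays. Camp, an antimicrobial peptide of secondary granules, went from 14.91 to 14.93 and Ltf, lactoferrin, from 14.51 to 14.53. Itgam, which encodes CD11b, differed by 0.14. The widest difference in the secondary and tertiary granule list was -0.59, at Hsd11b1.

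Genes of primary granules, made by promyelocytes, had a median of -0.27 over 11 members, and 6 of them were below 0. The serine proteases Ctsg, Prtn3 and Elane differed by -0.65, -0.36 and -0.32, and Mpo, myeloperoxidase, by -0.27, none of them by 2-fold. Nkg7, a granule protein shared with cytotoxic lymphocytes, was the 1 call, at a log2 difference of -1.06, and it was not called without array 1 of the wild-type pool (-0.83) or without either HDC-null array (adjusted p = 0.074 in limma each). Of 16 NADPH oxidase and antioxidant genes limma called 0, with 7 at an unadjusted p under 0.05 and a median of 0.09. Cybb, its catalytic subunit, was at 14.02 and 14.10.

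Proliferation genes differed little. Of 49 cell cycle members 1 was called, beside 3.93% of all members. It was Ccnd2 (cyclin D2), lower by 1.22 on the log2 scale. Ccnd2 lost the call as the mean of its probe sets (-0.62). It did the same without array 1 or 2 of the wild-type pool or array 2 of the HDC-null pool (-0.83 in the last case). Mki67, which marks cycling cells, was at 12.59 and 12.61. The list median was -0.12, and 36 of the 49 differences were below 0. Glycolysis and hypoxia genes had 1 call among 27 members, beside 3.93% of all members, and a median of -0.05. It was Ldhc, a member only through the wild-type pool. For apoptosis genes limma made 0 calls among 16 members (median -0.06), and for adhesion and migration genes 0 among 15 (median -0.05). An unadjusted p under 0.05 was reached by 4 and 7 of them. Early progenitor genes had 1, Sox4 at 2.12-fold higher, among 10, with a median of -0.17, and Sox4 was not called without array 1 of the HDC-null pool (0.96).

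Transcription factors of the myeloid lineage changed at 3 of 20 members, beside 3.93% of all members. Cebpb, the C/EBP factor of emergency granulopoiesis, fell 2.17-fold, from 13.66 and 13.62 to 12.48 and 12.56. Cebpa, the C/EBP factor of early granulocyte commitment, rose 2.31-fold from near background, from 5.15 and 5.23 to 6.35 and 6.45. Klf4, a factor of monocyte differentiation, rose 2.90-fold, from 7.83 and 8.14 to 9.52 on both arrays. Spi1 (PU.1) and Irf8, which also favour monocytes, differed by 0.63 and 0.84 and were not called, and Gfi1, a repressor needed by granulocytes, differed by -0.13.

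**Figure D4:**
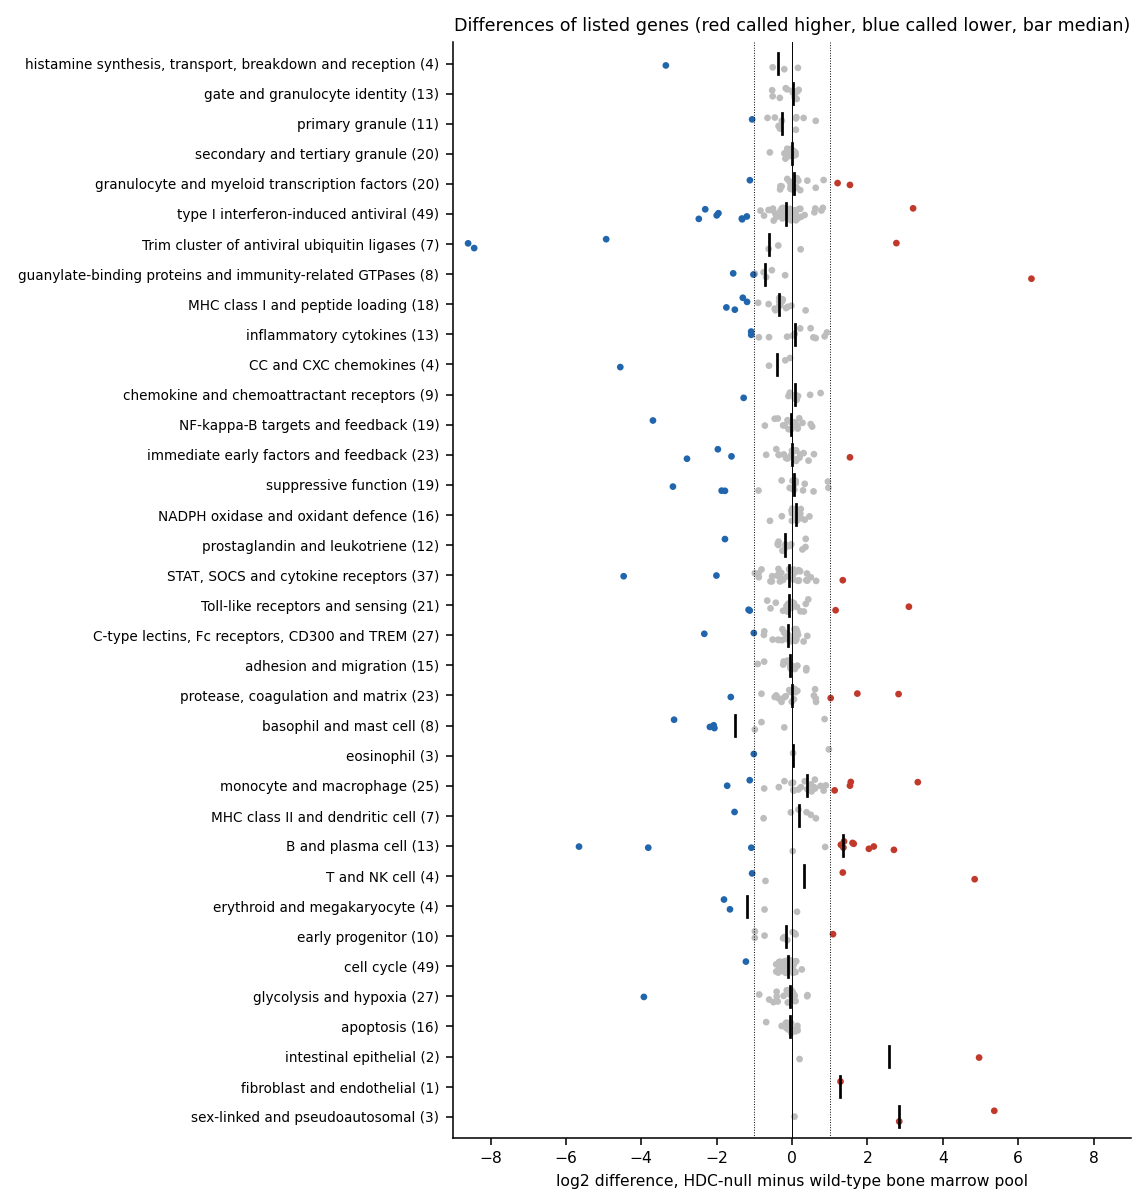
Each row is 1 of 36 gene lists, with its number of members in brackets, and each point 1 gene, placed by its log2 difference, HDC-null minus wild-type pool, with values under log2 5 not raised. Red points were called higher, blue lower and grey not called, the black bar is the list's median, and the points are spread vertically only to separate them. Granule, cell cycle and apoptosis genes cluster at 0, the interferon, Trim and basophil lists reach to the left, and the B and plasma cell list splits to both sides.

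Antiviral genes induced by type I interferon fell in part. Interferon binds its receptor and sends the STAT and IRF9 complex to an element called the ISRE in target promoters. Of 69 listed genes 49 were members, of which 7 fell, 1 rose and 41 were not called, beside 2.11% of all members that fell. The list median was -0.15, and 31 of 49 differences were below 0. Ifit1, which binds viral RNA, went from 8.35 and 8.27 to 5.85 and 5.81, a log2 difference of -2.47 ± 0.06 (limma, adjusted p = 6.3e-06). Oasl2, of the oligoadenylate synthetase family, went from 9.63 and 9.86 to 7.43 and 7.45. Ifit3 fell 3.87-fold, from 9.44 and 9.48 to 7.25 and 7.76. In all 3 the pools lay well apart.

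Rsad2 (viperin) fell from 10.64 to 9.31, Ifitm1, which blocks viral entry, from 12.65 to 11.33, and Usp18, which removes ISG15, from 8.03 to 6.83. Zbp1, a sensor of Z-form nucleic acids, fell 3.99-fold, but without probe sets of the kinds that can match several transcripts it was at -0.52 and not called. Ifi44l rose from 3.13, under background, to 6.34, a bound of 2.53-fold. Other genes of the same response were not called: Slfn4 differed by 0.07, Irf9 by 0.09, Oas1a by 0.10, Ifitm3 by -0.11, Cxcl10 by -0.18, Irf7 by -0.29 and Ifit2 by -0.31. Ifnar1 and Ifnar2, the receptor chains, differed by 0.21 and 0.05.

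Of 7 Trim members, which encode antiviral ubiquitin ligases, 3 went from clear signal to below background, beside 2.11% of all members called lower. These 3 are members only through the wild-type pool, where they are high. Limma called 0 of the 3 Trim members with both pools at or above log2 5. A call was also made for Trim34a, higher on its main probe set and lower on its other one. Trim30d read 11.11 and 11.23 on the wild-type arrays against 2.38 and 2.77 on the HDC-null arrays, and Trim12a 10.81 and 10.75 against 2.37 and 2.32. Trim5 read 7.87 and 7.94 against 2.96 and 3.00, at least 7.51-fold lower. Their relatives Trim30a and Trim12c stayed high, at differences of -0.62 and 0.23. A second Trim30d probe set differed by -3.47. Trim34a cannot be given a direction: its main probe set went from 4.64 to 7.40 and its other one from 10.00 to 3.49, a difference of -6.51.

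The promoters of these genes were read for the ISRE, because the data bear on interferon-induced genes that did and did not fall. The 250 bases before the start are shown for Ifit1, Ifit3 and Rsad2, the called interferon genes that hold the motif, and for Trim30d, the gene with the widest difference. Sequences are from RefSeq, build GRCm38.p6, 5′ to 3′ on the strand of the gene, and capitals mark each match to the ISRE, searched on both strands as GAAA, any 2 bases and GAAA again.
Ifit1 (chr19:34640639-34640888, plus strand): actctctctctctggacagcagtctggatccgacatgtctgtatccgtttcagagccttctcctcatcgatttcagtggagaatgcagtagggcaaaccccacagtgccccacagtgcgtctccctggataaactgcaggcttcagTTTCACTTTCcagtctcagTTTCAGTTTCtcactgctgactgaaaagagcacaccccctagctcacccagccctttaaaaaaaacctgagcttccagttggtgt
Ifit3 (chr19:34583279-34583528, plus strand): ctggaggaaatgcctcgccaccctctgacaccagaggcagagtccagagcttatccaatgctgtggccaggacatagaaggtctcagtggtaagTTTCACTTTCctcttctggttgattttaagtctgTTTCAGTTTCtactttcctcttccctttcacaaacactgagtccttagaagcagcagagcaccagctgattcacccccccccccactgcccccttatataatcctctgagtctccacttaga
Rsad2 (chr12:26456453-26456702, minus strand): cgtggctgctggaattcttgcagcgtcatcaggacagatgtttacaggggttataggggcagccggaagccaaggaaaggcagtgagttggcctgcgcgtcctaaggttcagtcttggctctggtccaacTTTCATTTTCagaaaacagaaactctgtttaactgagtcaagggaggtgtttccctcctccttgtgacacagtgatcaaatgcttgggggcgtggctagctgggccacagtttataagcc
Trim30d (chr7:104507850-104508099, minus strand): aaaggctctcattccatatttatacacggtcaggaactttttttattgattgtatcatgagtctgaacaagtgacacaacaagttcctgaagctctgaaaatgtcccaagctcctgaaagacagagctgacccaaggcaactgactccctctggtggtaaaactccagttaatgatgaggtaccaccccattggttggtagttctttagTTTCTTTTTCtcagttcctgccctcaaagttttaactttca
Ifit1 held 2 matches, with first bases 104 and 85 bases before the start, and Ifit3 also held 2, at 156 and 122. Rsad2 held 1 at 120 and Trim30d 1 at 41.

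In the window of 250 bases before to 50 after the start, 5924 of 7157 members had a promoter sequence, and 3.98% of them held the ISRE. Among interferon list members the share was 39.5% (15 of 38), made up of 3 of 5 that fell and 12 of 32 that were not called. All 7 Trim members held it, those that fell as well as Trim30a and Trim12c, and 4 of 7 did in the 250 bases before the start alone. Over all genes called lower the share was 8.70% (10 of 115) and over all called higher 6.54% (7 of 107). The CRE (TGACGTCA), bound by CREB downstream of cyclic AMP, stood in 3.73% of all, 3.48% of lower and 2.80% of higher genes. The AP-1 motif (TGANTCA) stood in 5.69%, 8.70% and 8.41%, and the GAS motif of STAT dimers (TTCNNNGAA) in 474 of 5924, 10 of 115 and 7 of 107. These are descriptions of letters in a window and not of binding.

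Interferon gamma-type genes of guanylate-binding proteins and immunity-related GTPases leaned the same way. Ifi47 fell 2.95-fold, from 8.87 and 8.78 to 7.07 and 7.46, and Igtp 2.03-fold, from 9.10 and 9.09 to 8.03 and 8.12, which ended at -0.98 without array 1 of the HDC-null pool and at -0.97 after median centring. Gbp2 was at 9.90 and 8.91, a difference of -0.99 that missed the 2-fold limit. Gbp2b went the other way, from 1.20 and 1.99 to 8.05 and 7.84, at least 7.71-fold higher. Limma called 2 of the 8 members lower and 1 higher, beside 2.11% and 1.82% of all members. Gbp2b, the higher one, is a member only through the HDC-null pool. The median of the 8 members was -0.72, and 7 of 8 differences were below 0.

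MHC class I genes, which these cytokines also induce, had 4 falls among 18 members, beside 2.11% of all members. The median was -0.34, and 17 of the 18 differences were below 0. Of the 15 members with both pools at or above log2 5, 3 fell. Nlrc5, the transactivator of class I genes, fell 3.35-fold, from 7.22 and 7.32 to 5.65 and 5.41. Tap1, of the peptide transporter, fell 2.47-fold, from 8.81 and 8.91 to 7.64 and 7.47, and Pdia3, of the loading complex, 2.29-fold, though as the mean of its probe sets it was not called (-0.58). H2-M3, a nonclassical class I gene, was at least 1.94-fold lower and was not called with values raised to log2 5. The classical genes H2-K1 and H2-D1 differed by -0.46 and -0.34 and B2m, the shared light chain, by -0.16, and none of these was called.

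Among inflammatory genes Cxcl2, Il1b and Csf1 fell. Cxcl2, the neutrophil attractant, went from 7.41 and 7.49 to 2.86 and 2.92, at least 5.46-fold lower. It was the 1 call among 4 chemokine members (median -0.39), beside 3.93% of all members, and is a member only through the wild-type pool. Of the 26 listed chemokines 22 lay under the filter in marrow. Il1b, interleukin 1 beta, fell 2.12-fold, from 11.92 and 11.81 to 10.69 and 10.88, and Csf1, the macrophage growth factor, also 2.12-fold. Both fell short of the 2-fold limit with 1 array left out: Il1b was at -0.99 without array 1 and Csf1 at -0.94 without array 2 of the HDC-null pool. The other 11 of 13 cytokine members were not called, Tnf at 0.49, Il1rn at 0.57 and Ltb at 0.93 among them, and the list median was 0.07.

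Of 19 NF-kappa-B targets and feedback genes 1 fell, Tgm2, beside 2.11% of all members, and the median was -0.02. Nfkbia, the inhibitor that NF-kappa-B induces first, was at 13.91 and 13.71, and Tnfaip3, another feedback gene, at 7.57 and 8.10. Among 23 members of the immediate early list 3 fell and 1 rose, beside 2.11% and 1.82% of all members. Dusp1, a phosphatase that turns off MAP kinases, fell 3.05-fold, from 13.14 on both arrays to 11.57 and 11.50, and Zfp36l1, an mRNA-decay protein, 3.91-fold. Fos, given above, was the third, and Klf4 was the 1 that rose. Junb, Jund and Fosl2, partners of Fos in AP-1, differed by -0.69, -0.21 and -0.16, and the list median was 0.00.

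Genes linked to the suppression of T cells by myeloid cells had 3 falls among 19 members, beside 2.11% of all members, and a median of 0.06. Of the 17 members with both pools at or above log2 5, 1 fell, Acod1. The other falls were Cd274 and Ptgs2, members only through the wild-type pool, where they are high. Cd274, which encodes PD-L1, went from 6.23 and 6.53 to 4.40 and 4.63, a bound of 2.60-fold. Ptgs2 encodes the cyclooxygenase that stimuli induce. Ptgs2 started near background, at 5.14 and 5.24, so its bound was 1.14-fold, and with values raised to log2 5 it was not called. Arg2, an arginase, differed by 0.57, Nt5e, which makes adenosine, by 0.96, and Vsir, the checkpoint ligand VISTA, by 0.06. In the prostaglandin and leukotriene list Ptgs2 was the 1 call of 12 members (median -0.18), and Alox5, Alox5ap and Lta4h of leukotriene synthesis differed by -0.18, -0.02 and -0.36.

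Of 37 cytokine signalling members 3 were called, beside 3.93% of all members, and the median was -0.07. Among the 34 with both pools at or above log2 5 limma called 1, Stat4. Beside Stat4, Il10ra, a chain of the interleukin 10 receptor, fell at least 3.08-fold, from 6.50 and 6.74 to 4.72 and 4.51, though as the mean of its probe sets it was not called (-0.65). Il7r reached 5.15 and 5.10 in the HDC-null pool from 3.99 and 3.56, which is a bound of 1.09-fold and was not called with values raised to log2 5 (0.12, limma adjusted p = 0.33). Stat3, Stat5b and Stat6 differed by -0.28, -0.07 and 0.02, none of them called. Csf3r, the receptor of the granulocyte growth factor, differed by 0.18.

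Among 21 genes of Toll-like receptors and sensing 2 rose and 2 fell, beside 1.82% and 2.11% of all members, with a median of -0.09. Pik3ap1 led the rises, and Tlr7, a receptor of single-stranded RNA, rose 2.23-fold, from 5.46 and 5.65 to 6.63 and 6.79, but not as the mean of its probe sets (0.71). Cd14, the lipopolysaccharide co-receptor, fell 2.18-fold and was not called without array 2 of the HDC-null pool (-0.87). Pycard, the inflammasome adaptor ASC, fell 2.22-fold and was not called as the mean of its probe sets (-0.64). Tlr4 and Myd88 differed by 0.43 and -0.09. Lectins and Fc receptors had 2 falls among 27 members, beside 2.11% of all members, and a median of -0.10. Of the 26 with both pools at or above log2 5, 1 fell, Siglecf. The falls were Clec4n (dectin-2), from 6.67 and 6.80 to 4.41 and 4.40, at least 3.32-fold lower, and Siglecf. Receptors for chemokines and chemoattractants had 1 fall among 9, Ccrl2, a bound of 1.34-fold, with a median of 0.09. Ccrl2 was not called without array 2 of the wild-type pool or array 1 of the HDC-null pool (adjusted p = 0.086 and 0.058 in limma), and Cxcr2, which guides neutrophils, differed by 0.07.

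Proteases and matrix genes moved both ways, 3 higher and 1 lower of 23, beside 1.82% and 2.11% of all members, with a median of -0.01. Plau, the urokinase, rose 3.32-fold, from 7.82 and 7.95 to 9.61 and 9.63, and Thbs1, thrombospondin 1, fell 3.08-fold, from 11.70 and 11.74 to 10.16 and 10.03. Adam17, the sheddase of tumor necrosis factor, rose 2.04-fold and not as the mean of its probe sets (0.65). The third rise was Ctse, whose second probe set is given above. The gelatinase Mmp9 and the collagenase Mmp8 of granulocyte granules differed by -0.17 and 0.09.

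Markers of other blood cells differed between the pools. Basophil and mast cell genes fell at 4 of 8 members, beside 2.11% of all members, and the median was -1.52 (-0.96 once low means were raised). Of these 4, Fcer1a, Ms4a2 and Cpa3 are members only through the wild-type pool, where they are high, and Mcpt8 was the 1 call among the 3 members with both pools at or above log2 5. Mcpt8, a protease of basophils, read 10.04 and 9.86 on the wild-type arrays against 8.01 and 7.73 on the HDC-null arrays, 4.23-fold lower. Fcer1a and Ms4a2, chains of the immunoglobulin E receptor, crossed the background level, at least 2.26-fold and 2.04-fold lower, and Cpa3, a mast cell carboxypeptidase, was at least 1.90-fold lower and not called with values raised to log2 5. Of 5 basophil and mast cell markers 5 lay at or above log2 5 in wild-type marrow and 2 in HDC-null marrow, and their summed level went from 10.52 to 8.70 on the log2 scale. Basophils and mast cells are themselves rich in Hdc, and their part in the fall of Hdc was not tested. Eosinophil genes were split, with Siglecf at 2.02-fold lower and Prg2, a granule protein, at 6.96 and 7.93 and not called. Siglecf, the 1 call of 3 members (median 0.03), ended at -0.96 after quantile normalization. Leaving out wild-type array 1 gave -0.99 and leaving out HDC-null array 1 gave -0.96.

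Immunoglobulin genes and other B cell genes went opposite ways. Of 13 B and plasma cell members 3 fell, beside 2.11% of all members. They were Igha, Jchain and Ighm, the heavy chain of immunoglobulin M at 2.11-fold lower. Ighm was at -0.19 and not called without probe sets that can match several transcripts. The list median was 1.36, or 0.37 with means raised to log2 5. A rise was called at 8 members, beside 1.82% of all members, but 7 of these are members only through the HDC-null pool, where they are high. Pou2af1, a B cell coactivator, reached 7.67 and 7.56 from 5.05 and 4.77, at least 6.11-fold higher, and Rag1, the recombinase of B and T cell precursors, 6.58 and 6.90 from 4.60 and 4.55, at least 3.35-fold. Cd79b of the B cell receptor rose from 5.58 to 6.94, with both pools above background. Bach2 had a bound of 3.29-fold, while the bounds of Cd72 (1.41-fold), Blnk (1.29-fold), Fcrla (1.27-fold) and Ebf1 (1.17-fold) lay under 2-fold. The defining genes Cd79a and Pax5 of B cells and Mzb1, Sdc1 and Tnfrsf17 of plasma cells lay under log2 5 in both pools. The summed level of plasma cell markers was 11.35 against 6.75 on the log2 scale, and of B cell markers 6.41 against 7.52. Such a sum follows the highest genes, here Igha for plasma cells, and is no measure of a cell type. The median of the plasma cell markers went from 3.95 to 4.40 and that of the B cell markers from 3.70 to 4.19, all under log2 5. The part of such cells in these differences was not tested.

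Of 46 listed T and NK cell genes 4 were members, and Cd3d and Il7r rose, Nkg7 fell and Ms4a4b was not called. Over all members 1.82% rose and 2.11% fell, and Il7r is a member only through the HDC-null pool. The median of the 4 members was 0.32, or -0.29 with means raised. Cd3e, Cd3g and Ncr1 were under log2 5 in both pools, while Cd3d was at 12.48 in the HDC-null pool. Monocyte and macrophage genes had 4 rises and 2 falls among 25 members, beside 1.82% and 2.11% of all members, and a median of 0.40. Lpl and Mrc1 are members only through the HDC-null pool, where they are high. Among the 22 members with both pools at or above log2 5, 2 rose and 2 fell. Lpl, lipoprotein lipase, was at least 6.15-fold higher, from 4.60 and 3.97 to 7.61 and 7.64. Mrc1, the mannose receptor, rose from 3.99, under background, to 5.55, a bound of 1.47-fold, and C1qb, of complement, from 6.76 and 6.08 to 7.60 and 7.50, which was not called without array 2 of the wild-type pool (0.79) or without either HDC-null array (adjusted p = 0.073 and 0.06 in limma). Adgre1, an adhesion receptor that marks macrophages, fell 3.30-fold, from 8.55 and 8.42 to 6.60 and 6.93. The summed level of 4 monocyte markers was 11.82 in the wild-type and 12.37 in the HDC-null pool, and Csf1r and Ccr2, their receptors, differed by 0.50 and 0.76 without being called.

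The remaining lists held few members. Of 7 members among dendritic cell and class II genes Cd80, a costimulatory ligand, fell 2.88-fold, from 7.02 and 6.81 to 5.48 and 5.30, and the median was 0.17. Of 4 erythroid and megakaryocyte genes Slc4a1 (band 3) and Car2 fell, beside 2.11% of all members. They went from 5.48 and 6.09 to under background, so they are members only through the wild-type pool. The bound was under 2-fold for Slc4a1 and 2.12-fold for Car2, and the list median was -1.19, or -0.49 with means raised. Slc4a1 was not called on a second probe set (-0.28). Of 25 intestinal epithelial genes 2 were members, Lgals4 at 0.20 and Dsp, while Epcam, Cdh1 and Vil1 lay under log2 5. Acta2, smooth muscle actin, was the 1 member of the fibroblast and endothelial list and rose 2.42-fold, though as the mean of its probe sets it was not called (0.49). Among 3 sex-linked and pseudoautosomal members Xist, the X-inactivation RNA, was at 12.39 and 12.46, and Erdr1 and Mid1, neighbours at the end of the X chromosome, rose from under background, Mid1 by a bound of 1.67-fold that was not called with values raised.

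To see which marrow pool carried a difference, the colon tumor pools were set beside them. These were CD11b+Gr-1+ cells of tumors from 7-month-old wild-type and HDC-KO mice given azoxymethane, a carcinogen, and then dextran sodium sulfate, which damages the gut epithelium. Hdc was at 13.24 in wild-type tumor cells and at 13.03 in those labelled HDC-KO, so its target gene did not bear out that label. The tumor pools also differed from marrow in other markers: Xist was at 3.26 and 2.88 there against 12.39 and 12.46 in marrow, and Epcam at 9.64 and 11.72 against 2.59 and 2.61. Tissue, age, treatment and these markers cannot be told apart. After low means were raised to log2 5, wild-type marrow lay at least 1 from each of the other 3 pools at 111 of the 281 called genes and the HDC-null marrow pool at 61. At 1 gene, Dtd1, both did, and at 110 neither did. The 4 called Trim genes, Stat4, Cd3d, Gbp2b, Dsp, Erdr1, Lpl, Oasl2, Mcpt8, Ms4a2 and Fcer1a were among those at which the wild-type marrow pool stood apart.

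At Stat4, for instance, the 4 pools were at 9.55 in wild-type marrow, 5.08 in HDC-null marrow, 4.69 in wild-type tumor and 4.72 in tumor labelled HDC-KO. At Trim12a they were at 10.78, 2.34, 2.41 and 2.20, so wild-type tumor cells, too, read below background. The HDC-null marrow pool stood apart at Hdc, Fos, Dusp1, Zfp36l1, Il1b, Csf1, Cxcl2, Cd14, Acod1, Cd274, Tgm2, Ifit1, Zbp1, Igha and Jchain. Fos was at 11.94 in wild-type marrow, 9.15 in HDC-null marrow, 13.90 in wild-type tumor and 13.98 in tumor labelled HDC-KO. Tgm2 was at 10.13, 6.44, 12.92 and 12.92 in the same order. Of the 61 genes at which the HDC-null marrow pool stood apart, 43 were called lower and 18 higher, Rag1 and Lhx1 among the higher ones. The genes from Hdc to Jchain listed above for the HDC-null marrow pool are all lower ones. At those this pool is the lowest of the 4 by the rule itself.

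**Figure D5:**
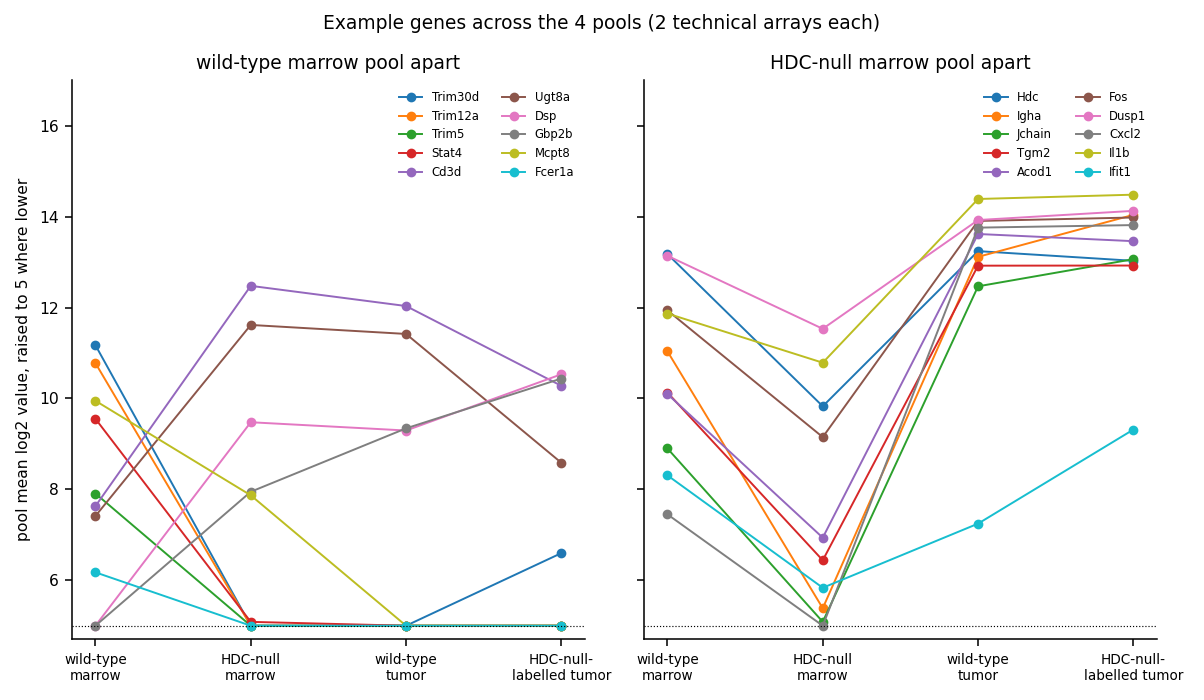
Lines join the mean log2 values of 1 gene in the 4 pools (2 technical arrays each), with values under log2 5 drawn at 5 (dotted line). The left panel shows 10 genes at which the wild-type marrow pool stood apart, such as Trim12a and Stat4, and the right panel 10 at which the HDC-null marrow pool did, such as Hdc, Fos and Tgm2, which dip in that pool.

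Called genes were next compared with other probe sets and with their neighbours. For 65 of the 281 called genes 93 other probe sets were detected in marrow, of which 88 differed in the same direction and 58 by at least 2-fold. In 39 genes all others showed the 2-fold difference, in 20 none did, and in 4 genes, Ctse, Pik3cg, Trim34a and Trim37, an other probe set went the opposite way. Both others of Igha were lower, at differences of -5.65 and -3.55. For Ighm 5 of 6 others were lower by at least 2-fold in the values as deposited. These 5 lay under log2 5 in the HDC-null pool, so their size depends on values under background. The detected probe sets of Igha and Ighm, main and other, are all of kinds that can match several transcripts, so they are no independent check.

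Of 7147 members placed in the gene order of GRCm38.p6, 15 pairs of called genes were direct neighbours, 10 of them with the same direction, or 11 if Trim34a is taken from its other probe set. They included the Trim genes Trim34a, Trim5 and Trim12a in a row on chromosome 7, Erdr1 with Mid1, Igha with Ighm, and a run of Glo1, a glyoxalase that detoxifies methylglyoxal, 1700097N02Rik and Dnah8, higher by 1.30, 1.42 and 1.98. Ms4a6d and Ms4a2, neighbours in the Ms4a family of membrane proteins, went opposite ways, with bounds of 6.78-fold higher and 2.04-fold lower. No test was made of these pairs.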

How the data were processed

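RNA of sorted CD11b+Gr-1+ cells (15 ug of total RNA, biotin-labelled cRNA) was read on 8 Affymetrix arrays, 2 technical arrays for each of 4 pools grouped by their titles. The authors deposited log2 values for 45101 probe sets; the submitters' processing notes name GCRMA, without a version. GCRMA normalizes between arrays and summarises probes, so levels of different genes are not comparable. Of the probe sets 34958 have 1 gene symbol, 932 several and 9211 none in the platform annotation; only the first were used. Array depth does not apply, so the number of arrays limits precision.

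limma 3.58.1 in R 4.3.3 was fitted to all 8 arrays and 4 groups over 8174 genes at or above log2 5 on at least 2 arrays, with 4 residual and 2.14 prior degrees of freedom and Benjamini-Hochberg adjustment over all of them. The fit was tested on simulated data. SE is limma's. Array numbers do not pair the pools (their deviations correlate at -0.02 in marrow). Descriptions used Python 3.11.15, numpy 2.4.6, pandas 2.3.3, scipy 1.17.1 and matplotlib 3.10.9. Promoters came from RefSeq, GRCm38.p6, matched by symbol; a gene with several starts counts if any window holds the motif.

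The members and the 36 lists (505 members, 92 genes in more than 1 list) were chosen with earlier results of these data known. Named by rule were Hdc, the 12 largest and smallest called differences, the 6 largest and smallest bounds, up to 4 called and 3 highest members of a list, and 5 neighbours of Hdc on each side, without predicted genes; not every one is given. Other genes named in the text were chosen after their values were seen. Alternatives were filters, normalization, the choice of probe set, the groups in the fit, the variance model, the replicate block, single arrays left out and the promoter window. Leaving out probe sets of the shared kinds, with identifiers ending in _x_at, _s_at or _a_at, was added after seeing the data.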

Additional observations from a re-analysis of the deposited data

Results flagged for a closer look

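All 36 genes named for their size differed in their genotype effect between marrow and colon tumor, by limma's test of the difference between the 2 effects (adjusted p from 2.3e-06 for Ifit1 to 0.00077 for Ssh1). They were chosen for a large difference in marrow, so a smaller one in tumor follows in part from that choice. The marrow difference is also part of what was tested, so passing is no support for these genes. Some genes not called in marrow passed the same limma test, such as Mki67 (adjusted p = 9.8e-06), and others did not, such as S100a9 (adjusted p = 0.82). Each pool is 1 sample on 2 technical arrays, and Hdc did not bear out the HDC-KO label of the tumor pool, so no direction is drawn from that label. Values below are the tumor effect minus the marrow effect on the log2 scale, with the marrow and the tumor effect in brackets. Pool means under log2 5 were raised to 5 for them, which touches 14 genes and makes their values depend on that floor, while the test used the values as deposited.

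Hdc was at 3.14 (-3.35 and -0.21). At 7 genes the effects were opposite and at least 2-fold in each tissue. Lower in HDC-null marrow and higher in tumor labelled HDC-KO were Ifit1 4.54 (-2.47 and 2.07), Oasl2 5.01 (-2.30 and 2.71) and Trim30d 7.77 (-6.17 and 1.60), the last with 2 pools under log2 5. The reverse held for Cd3d -6.60 (4.85 and -1.76), L1cam -3.87 (2.50 and -1.37), Ugt8a -7.04 (4.20 and -2.84) and Zfp692 -3.95 (2.51 and -1.44).

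Among the other genes with all 4 pools at or above log2 5, those lower in HDC-null marrow were Acod1 3.00 (-3.16 and -0.16), Ada 2.04 (-2.67 and -0.64), Coq10b 1.65 (-2.21 and -0.56), Fos 2.86 (-2.79 and 0.08), Igha 6.58 (-5.65 and 0.92), Jchain 4.41 (-3.82 and 0.60), Ramp1 2.67 (-2.24 and 0.43) and Tgm2 3.69 (-3.69 and 0.00). Those higher were Ap1s3 -4.31 (3.53 and -0.78), Coro2a -2.64 (2.31 and -0.32), Ctse -3.50 (2.83 and -0.67), Fcrl1 -1.98 (2.64 and 0.66), Pik3ap1 -2.88 (3.10 and 0.22), Ssh1 -2.53 (2.49 and -0.04) and Tmem87a -2.25 (2.77 and 0.53). With at least 1 pool under log2 5, the lower genes were Dmwd 2.93 (-2.93 and 0.00), Dtd1 4.01 (-3.31 and 0.70), Ldhc 3.41 (-3.41 and 0.00), Plekhg1 3.32 (-3.32 and 0.00), Stat4 4.47 (-4.47 and 0.00) and Trim12a 5.78 (-5.78 and 0.00). The higher ones were Bend4 -3.52 (3.50 and -0.02), Dsp -3.24 (4.48 and 1.24), Erdr1 -1.69 (3.42 and 1.74), Fam71b -4.42 (4.05 and -0.37), Lhx1 -3.04 (2.80 and -0.25), Pi4k2b -2.76 (3.04 and 0.28) and Snhg4 -2.97 (3.02 and 0.05).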

How the results depend on the processing

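The count of 281 called genes (130 higher and 151 lower) fell to 163 (67 and 96) with the filter at log2 7 and rose to 456 (196 and 260) when every probe set was counted; fewer and more features were tested there. As the mean of a gene's probe sets 81 were called higher, of 197 in all, while 105 of the 281 calls were lost and 21 were new. Leaving out single arrays gave 261 to 281 calls, 120 to 130 higher and 141 to 151 lower. Such totals hide turnover, since some calls were lost and others were new each time a marrow array was left out. The fit with the replicate block gave 281, 130 and 151, but array numbers do not pair the pools. Median centring gave 142 higher and 138 lower. Trim34a reversed, at -6.51 with the probe set highest in marrow and at -1.87 when its probe sets were averaged. Of 86 named called genes 59 kept the call in every alternative in which they were members, and 27 lost it in at least 1. A gene that an alternative left out was not counted as a loss, such as Rag1 (highest marrow array 6.90) with the filter at log2 7. That filter lost 118 of the 281 calls. With only the 250 bases before the start, motif shares moved to 3.34% (ISRE), 3.19% (CRE), 4.88% (AP-1) and 6.95% (GAS) of all members, and in the Trim list to 57.1% for the ISRE and 0.00% for AP-1. With 1 pool per genotype the arrays limit precision, and values under log2 5 have no order.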

Other observations

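Of 18 members among 30 genes of sterol synthesis and uptake, 5 fell by limma in the HDC-null marrow pool, beside 2.11% of all members. The list was chosen after its values were seen, so it gets no test. The 18 differences ran from -1.95 to -0.02, with a median of -0.73. Npc1, which exports cholesterol from lysosomes, went from 8.10 to 6.15, a log2 difference of -1.95 ± 0.15 (SE, n = 2 arrays for each pool). Cyp51 and Fdps, enzymes of sterol synthesis, went from 6.86 to 5.53 and from 8.36 to 7.13, Scd2, a fatty acid desaturase, from 9.14 to 7.84, and Insig1, a feedback regulator of sterol synthesis, from 8.28 to 7.17. Hmgcs1, an early enzyme of the pathway, was at 11.10 and 10.40 and missed the 2-fold limit.

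Further groups, also chosen after their values were seen, moved both ways. In the Ms4a family of membrane proteins Ms4a6d went from 3.97, under background, to 7.76, a bound of 6.78-fold, and Ms4a4c from 6.95 to 8.38, while Ms4a2 fell by a bound of 2.04-fold, and the median of 8 members was 0.52. Among 9 members of the circadian clock list Per1, a clock repressor, fell from 9.05 to 7.26 and Cirbp, a cold-induced RNA-binding protein, from 7.91 to 6.45. Clock itself was at 3.89, under background, and 5.13, a bound of 1.09-fold, and the list median was 0.06.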
